A study of Mus musculus with 4 samples.

Results

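Most of the 43 genes described here encode nuclear subunits of the last 3 machines of oxidative phosphorylation in the mitochondrial inner membrane. These are complex III, complex IV and ATP synthase. Cytochrome c, the supercomplex factor Cox7a2l and coupling factor B (Atp5s) are also among the 43, and some other subunits have names outside the rule. The 43 genes were chosen by symbol and a count minimum, a rule that uses no difference between the groups. It was set with earlier results of these data known. A row of the count table was taken where GENCODE M21 names a protein-coding mouse gene whose symbol starts with Uqcr, Cox4i, Cox5, Cox6, Cox7, Cox8 or Atp5, or is Cyc1 or Cycs, and where the 4 libraries together held at least 20 counts. Of 54752 rows 46 met the rule on names, and 43 of these met the count minimum: 9 for complex III (Cyc1 among them), 1 for cytochrome c, 16 for complex IV and 17 for ATP synthase.

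Complex III (ubiquinol-cytochrome c reductase) takes electrons from ubiquinol and passes them to cytochrome c, a small soluble carrier. Complex IV (cytochrome c oxidase) hands them on to oxygen, and both complexes pump protons out of the matrix. ATP synthase lets the protons flow back through its membrane ring and uses the rotation to make ATP in its F1 head. The catalytic centres of complex IV, cytochrome b of complex III and parts of the ATP synthase proton channel are encoded by mitochondrial DNA. All other subunits, including those described here, are made from nuclear genes and imported. Heart muscle has among the highest contents of these complexes of any tissue, and several subunits of complex IV have an isoform specific to heart and skeletal muscle that replaces the isoform of other tissues during development.

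The study sequenced RNA of whole mouse hearts in 2 groups of 2 libraries, wild type and Carm1 mutant, all labelled postnatal day 14 (the series text has the word neonatal). Carm1 encodes a protein arginine methyltransferase of histones and coactivators, and the question, by the title of the series, is its part in cardiac maturation. Sources used here do not give the mutant allele, the cells in which Carm1 was altered, the strain or the sex of the mice. Nothing in the labels ties the libraries to separate animals, and the spread within a group, on which every p-value rests, may be technical.

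Library totals ran from 11677604 to 22217442 counts. Carm1 itself was at 45.9 and 52.3 CPM (counts scaled to a common library size with TMM factors, here and throughout) in wild type 1 and 2 and at 35.8 and 31.8 CPM in Carm1 mutant 1 and 2. The groups did not overlap, and its log2 fold change, mutant over wild type, of −0.54 did not pass the test used throughout, which is edgeR's quasi-likelihood test with Benjamini-Hochberg adjustment over 15283 genes and a false discovery rate (FDR) threshold of 0.05 (SE 0.19, FDR 0.114). Sex-linked transcripts separated the groups: Xist, transcribed from the inactive X chromosome, was at 0.686 and 0.765 CPM in wild type against 323 and 288 CPM in the mutant libraries, and 4 Y-linked genes were called lower in the mutant libraries, so genotype and sex cannot be told apart in these samples. The wild type 1 library stood apart in its relation to the length of the longest transcript of a gene. Spearman's rho across genes between that length and the deviation from the mean of all libraries was −0.34 in wild type 1. It was 0.27, 0.20 and −0.003 in wild type 2, Carm1 mutant 1 and Carm1 mutant 2. Transcripts of the genes described here are short, with a median length of 718.5 bases for their principal transcript against 2959 over all genes tested, so results below are also given without that library.

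Promoters were looked up for all 43 genes, since 40 of their 43 fold changes have the same sign, and 33 matched in RefSeq (GRCm38.p6), with 36 start sites. The windows hold 250 bases before and 50 after a start. They were searched on both strands for 4 motifs of factors with known roles in respiratory gene transcription: the half-sites GCGCA and GCGC with any 1 base between them for NRF1, CCGGAAG for the ETS family (which includes GABPA), AAGGTCA for estrogen-related receptors and AAGATGGC for YY1. The NRF1 letters were in 8 of the 36 windows (22.2%) against 4.60% of all 32851 windows of the same length, and the ETS letters in 10 (27.8%) against 8.86%. For the estrogen-related receptor letters the counts were 4 (11.1%) against 4.72%, and for YY1 3 (8.33%) against 2.75%. The windows compared with were not matched for GC content or for expression in heart, so these shares do not set respiratory genes apart from other expressed genes. NRF1 matches were in the windows of Atp5c1, Atp5g2, Atp5g3, Atp5h, Atp5k, Atp5o, Cox6a1 and Uqcrc1. The windows of Cox6b1, with 1 ETS match, and of its testis isoform Cox6b2, with 0, are not shown. The bases before the start are shown here for the heart and muscle isoform pairs of complex IV, where Cox6a2 had no window. They are also shown for Atp5g3 of the ATP synthase membrane ring, whose NRF1 match lies after the start and outside these bases. All are read 5′ to 3′ on the strand of the gene, with matches that lie wholly within them in capitals.
Cox6a1, the isoform of tissues other than heart and muscle, chr5:115348959-115349208, minus strand, with 2 NRF1 matches and then 1 ETS match: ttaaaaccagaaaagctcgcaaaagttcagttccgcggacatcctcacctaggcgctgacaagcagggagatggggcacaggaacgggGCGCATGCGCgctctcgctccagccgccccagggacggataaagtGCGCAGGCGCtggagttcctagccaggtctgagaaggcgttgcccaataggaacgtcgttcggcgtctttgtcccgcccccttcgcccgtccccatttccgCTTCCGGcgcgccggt
Cox7a1, the heart and muscle isoform, chr7:30183921-30184170, plus strand, with no match: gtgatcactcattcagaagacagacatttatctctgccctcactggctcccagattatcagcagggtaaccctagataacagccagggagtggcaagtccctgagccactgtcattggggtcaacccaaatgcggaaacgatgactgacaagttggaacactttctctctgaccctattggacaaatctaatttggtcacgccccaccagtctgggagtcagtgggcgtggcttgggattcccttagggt
Cox7a2, its counterpart in other tissues, chr9:79759854-79760103, minus strand, with no match: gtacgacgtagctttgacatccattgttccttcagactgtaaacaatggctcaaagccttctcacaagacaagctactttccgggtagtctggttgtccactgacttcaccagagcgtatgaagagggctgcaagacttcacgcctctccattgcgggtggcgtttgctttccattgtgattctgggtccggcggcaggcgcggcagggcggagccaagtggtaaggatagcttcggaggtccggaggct
Cox8a, the widely expressed isoform, chr19:7217617-7217866, minus strand, with no match wholly in these bases and 2 ETS matches across and after the start: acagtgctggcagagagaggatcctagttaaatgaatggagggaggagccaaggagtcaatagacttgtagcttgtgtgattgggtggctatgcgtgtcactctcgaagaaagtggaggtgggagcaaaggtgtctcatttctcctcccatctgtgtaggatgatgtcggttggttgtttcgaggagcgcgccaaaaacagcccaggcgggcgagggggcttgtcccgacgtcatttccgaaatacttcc
Cox8b, the heart and muscle isoform, chr7:140900447-140900696, minus strand, with no match: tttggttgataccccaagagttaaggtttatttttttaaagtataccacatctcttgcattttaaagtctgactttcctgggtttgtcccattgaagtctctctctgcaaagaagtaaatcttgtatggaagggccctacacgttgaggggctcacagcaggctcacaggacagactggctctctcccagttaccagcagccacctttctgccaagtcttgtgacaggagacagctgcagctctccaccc
Atp5g3, a c ring subunit, chr2:73911327-73911576, minus strand, with 1 match to the estrogen-related receptor letters: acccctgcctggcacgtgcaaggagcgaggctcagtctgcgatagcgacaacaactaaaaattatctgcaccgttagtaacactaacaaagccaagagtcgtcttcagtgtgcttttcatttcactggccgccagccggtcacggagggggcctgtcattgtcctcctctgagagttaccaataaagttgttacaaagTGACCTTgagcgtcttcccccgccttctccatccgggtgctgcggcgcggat
A match is a description of letters and not of binding, which was not measured here. The windows shown for the 2 heart and muscle isoforms and that of Cox7a2 held none of the 4 motifs, and those of Cox6a1 and Cox8a held 1 or 2 kinds.

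Across the 43 genes the mutant libraries had lower levels for most, and 4 genes fell by the test: Uqcrc2 and Uqcrfs1 of complex III, Cox7a2l of the complex IV family and Atp5a1 of ATP synthase. None was called higher. The lower calls compare with 4.58% lower (2.79% higher) over all genes tested and with 15.1% lower among the 1234 genes with a mean of at least 100 CPM, a level that 40 of the 43 reach, so the number called does not set these genes apart from others of like abundance. The median log2 fold change was −0.64, with a range from −1.26 to 0.36 and 40 of 43 values below 0, against a median of 0.02 over all genes and −0.34 among genes of at least 100 CPM. Values below 0 made up 48.4% of all genes tested and 72.4% of those of at least 100 CPM. By complex the median was −0.62 for complex III, −0.49 for complex IV and −0.72 for ATP synthase. The mutant libraries lay wholly below the wild type ones for 25 genes and wholly above for 1 (Cox4i2), and the groups overlapped for 17. Groups that do not overlap with the mutant lower were found for 28.7% of all genes and 53.4% of those of at least 100 CPM. In a whole heart, fewer cells of a type and less RNA per cell cannot be told apart.

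**Figure D1:**
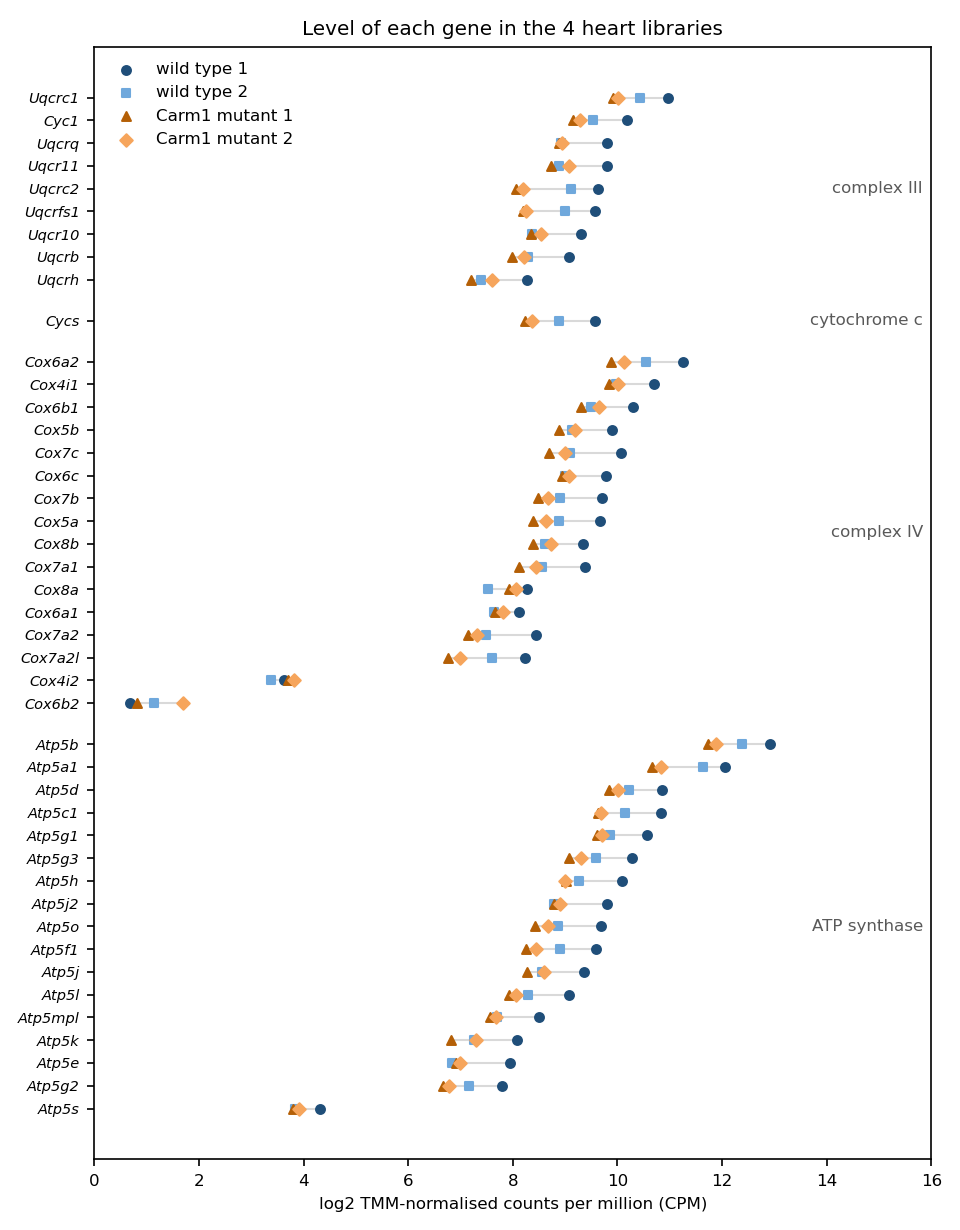
Level of each of the 43 genes in the 4 libraries, as log2 TMM-normalised CPM on the horizontal axis, grouped by complex and ordered by mean level. Dark circles are wild type 1, light squares wild type 2, dark triangles Carm1 mutant 1 and light diamonds Carm1 mutant 2; wild type 1 is the highest library for most genes, and in the 17 genes whose groups overlap wild type 2 lies among or below the mutant libraries.

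As a share of all counts the 43 genes held 3.67% and 2.70% in wild type 1 and 2 and 2.33% and 2.72% in Carm1 mutant 1 and 2. Their summed level was 45505 and 28631 CPM in wild type against 20631 and 23358 CPM in the mutant libraries. The sum in wild type 2 was nearer to the mutant libraries than to wild type 1. Gene by gene, wild type 1 lay above wild type 2 in 42 of 43, with a median log2 ratio of 0.74 (0.00 over all genes). It lay above in 49.6% of all genes tested and in 67.4% of those of at least 100 CPM. Carm1 mutant 2 lay above Carm1 mutant 1 in 42 of 43 (51.5% and 56.3%), with a median log2 ratio of mutant 1 over mutant 2 of −0.17. Over the 15283 genes tested, 7639 log2 fold changes were below 0 without wild type 1, and 850 over the 1234 genes of at least 100 CPM. Without wild type 1 the median log2 fold change was −0.26, 32 of 43 values were below 0 and 10 genes were called lower (8.76% of all genes in that fit). Without wild type 2 the number was 39 (19.5% of all genes). Without Carm1 mutant 1 it was 0 (1.15% of all genes) and without Carm1 mutant 2 also 0 (0.987%), so none of the 4 calls held when either mutant library was left out.

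**Figure D2:**
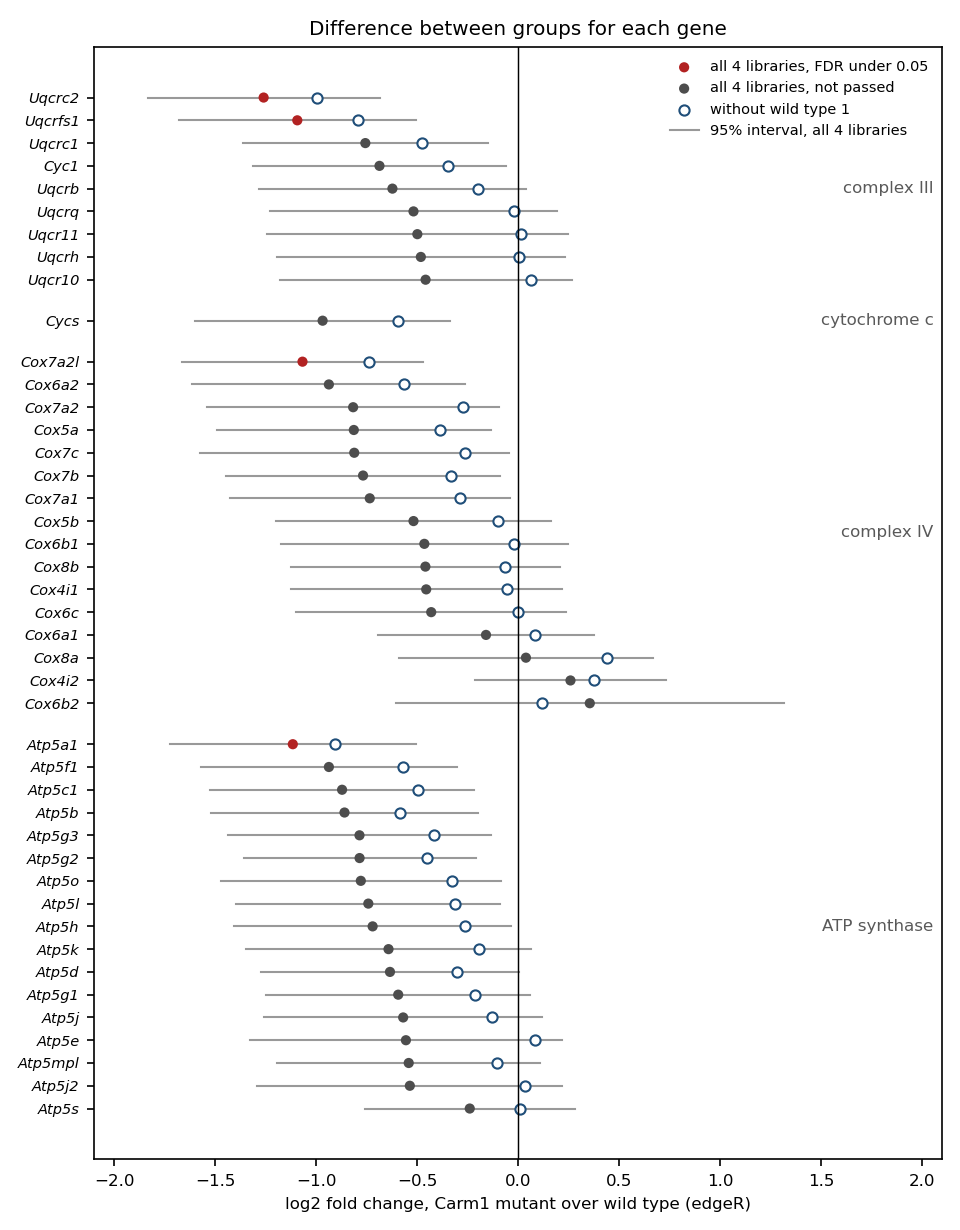
Log2 fold change, Carm1 mutant over wild type, of each gene by edgeR on the horizontal axis, with its 95% interval as a line (all 4 libraries); red points passed an FDR of 0.05 and grey points did not. Open circles are the fit without wild type 1 and lie to the right of the filled points for all genes shown except Cox6b2.

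Complex III is a dimer whose matrix arm is built from 2 core proteins, Uqcrc1 and Uqcrc2. Uqcrc2 (ENSMUSG00000030884, GRCm38 chromosome 7, 120635176 to 120659524, plus strand) was at 788 and 551 CPM in wild type 1 and 2 and 267 and 291 CPM in Carm1 mutant 1 and 2. Both wild type libraries lay above both mutant ones, and the mutant libraries were close to each other. The means were 669 ± 167 and 279 ± 16.9 CPM (SD, n = 2 each), and the gene fell by 1.26 on the log2 scale (SE 0.25, edgeR FDR 0.0278). It had the largest fall of the 43 genes, in the fit of all libraries and also without wild type 1 (−0.995). Uqcrc1, its partner in the core, was at 2008 and 1381 CPM in wild type 1 and 2 and 971 and 1034 CPM in Carm1 mutant 1 and 2. Its groups did not overlap either, but the log2 fold change of −0.76 (SE 0.26, edgeR FDR 0.113) did not pass the test.

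The catalytic subunits of complex III that nuclear genes encode are the Rieske iron-sulfur protein Uqcrfs1 and cytochrome c1, Cyc1. Uqcrfs1 (ENSMUSG00000038462, chromosome 13, 30540308 to 30545362, minus strand) was at 762 and 512 CPM in wild type 1 and 2 and 292 and 304 CPM in Carm1 mutant 1 and 2. The mutant libraries were close to each other and below both wild type libraries. The means were 637 ± 177 and 298 ± 8.37 CPM (SD, n = 2 each), and the gene fell by 1.09 on the log2 scale (SE 0.25, edgeR FDR 0.0424). Cyc1, which carries the haem that passes electrons to cytochrome c, was at 1164 and 746 CPM in wild type 1 and 2 and 565 and 621 CPM in Carm1 mutant 1 and 2. Wild type 2 lay nearer to the mutant libraries than to wild type 1, and the log2 fold change of −0.69 (SE 0.27, edgeR FDR 0.148) did not pass. Cytochrome c itself, Cycs (ENSMUSG00000063694, chromosome 6, 50562563 to 50566538, minus strand), which also starts apoptosis when released from mitochondria, was at 764 and 473 CPM in wild type 1 and 2 and 300.5 and 332 CPM in Carm1 mutant 1 and 2. Here the groups did not overlap, and the log2 fold change of −0.97 (SE 0.27, edgeR FDR 0.0703) missed the threshold with all libraries and passed it without wild type 1 (−0.60, FDR 0.0213).

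The 5 small supernumerary subunits of complex III, Uqcrb, Uqcrq, Uqcrh, Uqcr10 and Uqcr11, have no redox centre and surround the core. None of them passed, with log2 fold changes from −0.62 (Uqcrb) to −0.46 (Uqcr10). Uqcrb, which helps to hold cytochrome b and the quinone site, was at 536 and 313 CPM in wild type 1 and 2 and 254 and 297 CPM in Carm1 mutant 1 and 2. It is the only one of the 5 whose groups did not overlap. Uqcrq was at 898 and 483 CPM in wild type 1 and 2 and 471 and 493 CPM in Carm1 mutant 1 and 2, and Uqcr11 at 889 and 471 CPM in wild type 1 and 2 and 423 and 538 CPM in Carm1 mutant 1 and 2. In both, wild type 1 stood out and the other 3 libraries lay together. For Uqcrh, the hinge protein beside cytochrome c1, the values were 309 and 169 CPM in wild type 1 and 2 and 147 and 195 CPM in Carm1 mutant 1 and 2, and for Uqcr10 628 and 331 CPM in wild type 1 and 2 and 324 and 374 CPM in Carm1 mutant 1 and 2. Without wild type 1 the 5 log2 fold changes ran from −0.20 to 0.06, while those of Uqcrc2, Uqcrfs1, Uqcrc1 and Cyc1 were −0.995, −0.79, −0.48 and −0.35.

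Complex IV had the lowest share of genes with separated groups. Of its 16 genes 7 lay wholly lower in the mutant libraries, 1 wholly higher and 8 overlapped, where 53.4% of all genes of at least 100 CPM lay wholly lower. Cox4i1 is the regulatory subunit that binds ATP and ADP and enters the complex early, with Cox5a. Cox4i1 was at 1672 and 1004 CPM in wild type 1 and 2 and 918 and 1034 CPM in Carm1 mutant 1 and 2, with wild type 2 between the mutant libraries and a log2 fold change of −0.46 (SE 0.29, edgeR FDR 0.346). Cox5a was at 816 and 474 CPM in wild type 1 and 2 and 336 and 398 CPM in Carm1 mutant 1 and 2. Its groups were separate, with a log2 fold change of −0.81 (SE 0.29, edgeR FDR 0.122). For Cox5b, the zinc-binding subunit on the matrix side, the values were 953 and 559.6 CPM in wild type 1 and 2 and 475 and 581 CPM in Carm1 mutant 1 and 2, and wild type 2 again lay between the mutant libraries.

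Further small subunits of complex IV in this set are Cox6b1, which faces the intermembrane space and bridges the dimer, and the membrane-spanning Cox6c, Cox7b and Cox7c. Cox6b1 was at 1259 and 721 CPM in wild type 1 and 2 and 634 and 801 CPM in Carm1 mutant 1 and 2. By level per kilobase of principal transcript it had rank 3 in complex IV in every library, after Cox6a2 and Cox4i1, and its log2 fold change was −0.46 (SE 0.31, edgeR FDR 0.362). Cox7c was at 1075 and 549 CPM in wild type 1 and 2 and 416 and 509 CPM in Carm1 mutant 1 and 2, with separate groups and a log2 fold change of −0.81 (SE 0.33, edgeR FDR 0.159). Cox7b was at 829.8 and 478 CPM in wild type 1 and 2 and 358 and 410.1 CPM in Carm1 mutant 1 and 2, also separate, with a log2 fold change of −0.77 (SE 0.29, edgeR FDR 0.138). Cox6c was at 879.9 and 510.4 CPM in wild type 1 and 2 and 491 and 541 CPM in Carm1 mutant 1 and 2, and its log2 fold change moved from −0.43 to 0.00 without wild type 1. None of the 4 passed the test.

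Cox4i2 and Cox6b2 are isoforms of lung and of testis, and both were near the bottom of the range. Cox4i2 was at 12.4 and 10.4 CPM in wild type 1 and 2 and 13.1 and 14.1 CPM in Carm1 mutant 1 and 2, the only gene of the 43 with both mutant libraries above both wild type ones, though by less than the test requires (0.26, SE 0.21, edgeR FDR 0.448). Cox6b2 was at 1.601 and 2.20 CPM in wild type 1 and 2 and 1.75 and 3.24 CPM in Carm1 mutant 1 and 2, from 28 to 44 counts a library, and its groups overlapped (0.36, SE 0.42, edgeR FDR 0.619). Testis markers were at or near 0 in every library.

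The 3 complex IV subunits with a heart and muscle isoform did not show 1 common pattern. For subunit 6a, Cox6a2 (ENSMUSG00000030785, chromosome 7, 128205435 to 128206387, minus strand), the heart and muscle isoform, was at 2428 and 1501 CPM in wild type 1 and 2 and 941 and 1110.3 CPM in Carm1 mutant 1 and 2, and Cox6a1 (chromosome 5, 115345642 to 115348981, minus strand), the isoform of other tissues, at 279 and 200.2 CPM in wild type 1 and 2 and 203 and 226 CPM in Carm1 mutant 1 and 2. The groups of Cox6a2 were separate with a log2 fold change of −0.94 (SE 0.29, edgeR FDR 0.0891), and those of Cox6a1 overlapped, with −0.16 (SE 0.23, edgeR FDR 0.698). Cox6a2 thus held 89.7% and 88.2% of the counts of the pair in wild type 1 and 2 and 82.3% and 83.1% in Carm1 mutant 1 and 2. The group means were 89.0% ± 1.04 and 82.7% ± 0.58 (SD, n = 2 each), a difference of −6.29 percentage points with no overlap. A share within a library is free of the scaling between libraries, and here the wild type libraries differed by less than the groups did. It is not free of the mix of cell types in a heart, whose part in these shares was not tested.

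For subunit 8, Cox8b (ENSMUSG00000025488, chromosome 7, 140898945 to 140900446, minus strand), the heart and muscle isoform, was at 651 and 392 CPM in wild type 1 and 2 and 336 and 423 CPM in Carm1 mutant 1 and 2 (−0.46, SE 0.29, edgeR FDR 0.336), and Cox8a (chromosome 19, 7215153 to 7217616, minus strand) at 310.2 and 185 CPM in wild type 1 and 2 and 243 and 266 CPM in Carm1 mutant 1 and 2 (0.04, SE 0.27, edgeR FDR 0.94). Neither gene separated the groups by level. Their ratio did: Cox8b held 67.7% and 67.9% of the pair in wild type against 58.0% and 61.4% in the mutant libraries, or 67.8% ± 0.13 and 59.7% ± 2.41 (SD, n = 2 each), a difference of −8.11 points. The wild type libraries agreed to within their counting error, although wild type 1 held 1.66-fold more Cox8b and 1.67-fold more Cox8a than wild type 2.

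For subunit 7a, Cox7a1, the heart and muscle isoform, was at 664 and 379 CPM in wild type 1 and 2 and 278 and 349 CPM in Carm1 mutant 1 and 2 (−0.74, SE 0.30, edgeR FDR 0.16), and Cox7a2 at 349 and 179.6 CPM in wild type 1 and 2 and 142 and 158 CPM in Carm1 mutant 1 and 2 (−0.82, SE 0.31, edgeR FDR 0.139). Both members of the pair had separate groups and fold changes of like size. Cox7a1 held 65.5% and 67.8% of the pair in wild type against 66.2% and 68.8% in the mutant libraries, 66.7% ± 1.62 and 67.5% ± 1.81 (SD, n = 2 each), and the groups overlapped at a difference of 0.81 points. The sign of that difference turned when wild type 1 (−0.33) or Carm1 mutant 2 (−0.47) was left out.

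For subunit 4, Cox4i2 held 0.73% and 1.02% of the counts of Cox4i1 plus Cox4i2 in wild type against 1.41% and 1.35% in the mutant libraries, 0.88% ± 0.20 and 1.38% ± 0.04 (SD, n = 2 each). The mutant libraries were both above the wild type ones, by 0.50 points on average. The exact two-sided permutation test of 2 libraries against 2 cannot go below p = 0.333, which is what the shares of Cox6a2, Cox8b and Cox4i2 and that of Atp5g1 below gave (0.417 after adjustment over the 5 shares), and the Cox7a1 share gave an exact permutation p of 0.667. This test can therefore not pass a threshold of 0.05 with these samples. Exact Clopper-Pearson 95% intervals on the share of any 1 library spanned at most 1.10 points for Cox6a2, 2.20 for Cox7a1, 1.98 for Cox8b and 0.39 for Cox4i2, and cover counting error only.

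**Figure D3:**
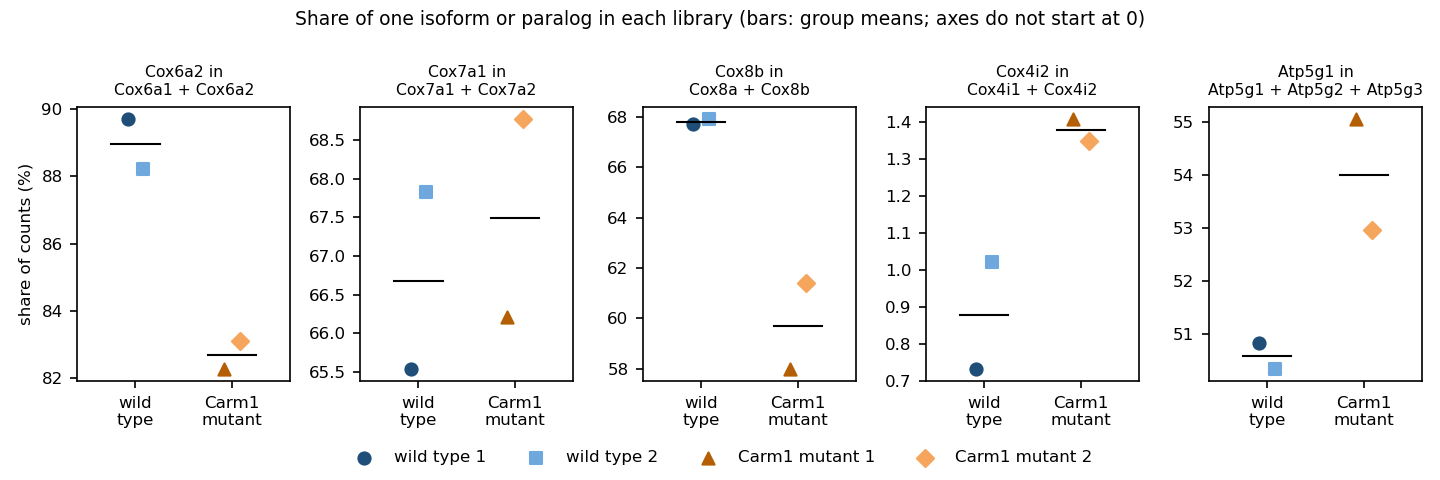
Share of the counts of an isoform set taken by 1 isoform or paralog, in percent on the vertical axis (axes do not start at 0), in each library; points are libraries and bars are group means. The shares of Cox6a2 and Cox8b lie lower in both Carm1 mutant libraries, those of Cox4i2 and Atp5g1 higher, and those of Cox7a1 overlap.

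Cox7a2l, a relative of Cox7a2, is known as a factor that joins complex III to complex IV in supercomplexes. Cox7a2l (ENSMUSG00000024248, chromosome 17, 83501918 to 83517330, minus strand) was at 300.4 and 194 CPM in wild type 1 and 2 and 109 and 127 CPM in Carm1 mutant 1 and 2. Both mutant libraries were below both wild type ones. The means were 247 ± 74.9 and 118 ± 12.9 CPM (SD, n = 2 each), and the gene fell by 1.07 on the log2 scale (SE 0.26, edgeR FDR 0.0471). That value is uncertain, because a processed copy of the gene, Gm6969 (ENSMUSG00000066553, chromosome 12, 24638669 to 24639010, minus strand), had values that went the other way. Gm6969 was at 14.6 and 11.1 CPM in wild type 1 and 2 and at 61.2 and 66.6 CPM in Carm1 mutant 1 and 2. Its groups were far apart, and it rose by 2.31 on the log2 scale (SE 0.21, edgeR FDR 0.0038).

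Of the counts in Cox7a2l and its annotated copies together, the copies held 4.65% (exact 95% interval 4.11 to 5.24) and 5.42% (4.74 to 6.16) in wild type and 36.0% (34.5 to 37.4) and 34.4% (32.5 to 36.2) in the mutant libraries. With the copy's counts added, the level was 315 and 206 CPM in wild type against 170.0 and 194 CPM in the mutant libraries, the log2 fold change was −0.52 (SE 0.25, edgeR FDR 0.228) and the gene no longer passed the test. The number of genes called lower was then 3. The sources used here do not say how reads that match both places were counted.

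The sequences show how the copy and the gene differ in the reference. The 342 bases of Gm6969 align along their whole length to the principal transcript of Cox7a2l (1076 bases, GENCODE M21) with 2 mismatches, or 99.4% identity, and with 6 further bases that the Cox7a2l transcript lacks. Bases 227 to 310 of the Cox7a2l transcript and the matching bases of the copy (24638750 to 24638839 on chromosome 12) are printed below, with the 6 further bases in capitals.
Cox7a2l: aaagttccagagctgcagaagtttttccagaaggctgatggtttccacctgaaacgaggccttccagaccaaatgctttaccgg
Gm6969: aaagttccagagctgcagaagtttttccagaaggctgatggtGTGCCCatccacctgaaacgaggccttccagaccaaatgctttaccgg
Laboratory mouse strains are known to carry alleles of Cox7a2l that differ by a short deletion in the coding sequence. The part of such an allele in these counts was not tested.

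Annotated pseudogenes of any type with at least 90% identity over at least 50% of their length were taken as copies. They were found for 23 of the 43 genes, 79 copies in all. They held over 5% of the counts in 7: Atp5g1, Atp5g2, Atp5h, Atp5l, Atp5o, Cox7a2l and Cox7c. In the other 6 of these the shares of the 4 libraries lay closer together, with the widest range for Atp5g2 (22.7% to 26.6%), and those of Atp5g1 at 20.1% and 20.4% in wild type against 18.5% and 19.2% in mutant libraries. Of the 15 copies with the most counts, at least 102 over the 4 libraries, Gm6969 was the only one called. The other 14 had log2 fold changes below 0, as their parent genes had. Fold changes of copies with fewer counts were not looked at. The levels of these 7 genes are uncertain to the extent of those shares. Among the subunits of complex I, chosen after their values were seen, Ndufs5 and Ndufa12 had the same pattern as Cox7a2l, with copies at 1.41% and 1.37% in wild type and 76.7% and 77.7% in mutant libraries for Ndufs5, and at 37.0% and 36.1% and at 85.5% and 82.4% for Ndufa12.

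**Figure D4:**
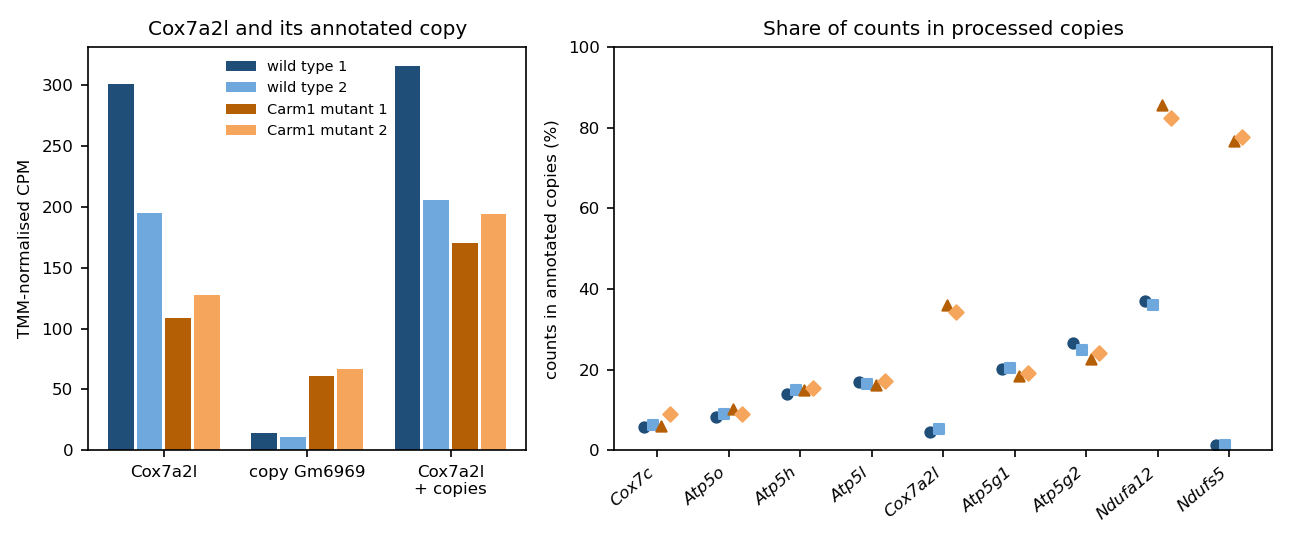
Left, level of Cox7a2l, its annotated copy Gm6969 and the sum of the gene and its copies in TMM-normalised CPM, 1 bar per library. Right, share of counts in annotated copies, in percent, for the genes with over 5% and for Ndufa12 and Ndufs5 of complex I. Its title says processed copies, but pseudogenes of any type were taken. Each library has 1 point in the same colours, and the share differs most between the groups for Cox7a2l, Ndufa12 and Ndufs5.

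In ATP synthase the 5 genes of the catalytic head and the central stalk that turns inside it had a median log2 fold change of −0.86, against −0.79 for the c ring, −0.75 for the peripheral stalk and −0.59 for the membrane and dimer subunits, and the values of single genes overlapped between these parts. Atp5a1 (ENSMUSG00000025428), the alpha subunit that alternates with the catalytic beta subunit around the head, was at 4257 and 3193 CPM in wild type 1 and 2 and 1618 and 1819 CPM in Carm1 mutant 1 and 2. Both mutant libraries were below both wild type ones. The means were 3725 ± 752 and 1718 ± 142 CPM (SD, n = 2 each), and the gene fell by 1.12 on the log2 scale (SE 0.26, edgeR FDR 0.0447). Atp5b (ENSMUSG00000025393, chromosome 10, 128083273 to 128090391, plus strand), the beta subunit with the catalytic sites, was at 7738 and 5346 CPM in wild type 1 and 2 and 3404 and 3804 CPM in Carm1 mutant 1 and 2. Its groups were also separate, but its log2 fold change of −0.86 (SE 0.29, edgeR FDR 0.103) did not pass. By level per kilobase of principal transcript, Atp5b had rank 1 among the 17 ATP synthase genes in every library, and Atp5a1 had ranks 3 and 2 in wild type 1 and 2 and ranks 6 and 5 in Carm1 mutant 1 and 2.

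Of the central stalk, Atp5c1, the gamma subunit that turns in the head, was at 1831 and 1131 CPM in wild type 1 and 2 and 794 and 824 CPM in Carm1 mutant 1 and 2, with separate groups and a log2 fold change of −0.87 (SE 0.28, edgeR FDR 0.0965). Atp5d, the delta subunit, was at 1839 and 1191 CPM in wild type 1 and 2 and 913 and 1038 CPM in Carm1 mutant 1 and 2, also separate, with a log2 fold change of −0.63 (SE 0.28, edgeR FDR 0.183). Atp5e, the epsilon subunit, was at 247 and 115 CPM in wild type 1 and 2 and 120.0 and 126 CPM in Carm1 mutant 1 and 2. In Atp5e only wild type 1 stood out, and its log2 fold change went from −0.56 to 0.08 without that library. Without wild type 1 the median over these 5 genes was −0.50.

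The peripheral stalk holds the head still while the ring turns, and none of its 4 genes passed, at a median of −0.75. Atp5f1, subunit b, was at 770.5 and 481 CPM in wild type 1 and 2 and 305 and 348 CPM in Carm1 mutant 1 and 2, with separate groups and a log2 fold change of −0.94 (SE 0.27, edgeR FDR 0.0761). Atp5o, the oligomycin sensitivity-conferring subunit, was at 824 and 466 CPM in wild type 1 and 2 and 343 and 409 CPM in Carm1 mutant 1 and 2 (−0.78, SE 0.30, edgeR FDR 0.14), and Atp5h, subunit d, at 1089 and 614 CPM in wild type 1 and 2 and 520.3 and 513 CPM in Carm1 mutant 1 and 2 (−0.72, SE 0.30, edgeR FDR 0.163). The groups were separate in these 2 as well. For Atp5j, coupling factor 6, wild type 2 lay between the mutant libraries, with 656 and 377 CPM in wild type 1 and 2 and 309 and 387 CPM in Carm1 mutant 1 and 2. Exons of Atp5j overlap Gabpa on the other strand, and the sources used here do not say whether the kit kept strand.

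The c ring is the rotor through which protons pass, and 3 genes encode the same mature c subunit with different import sequences. Atp5g1 was at 1513 and 925 CPM in wild type 1 and 2 and 782 and 833 CPM in Carm1 mutant 1 and 2, Atp5g2 at 221 and 143 CPM in wild type 1 and 2 and 102 and 109.7 CPM in Carm1 mutant 1 and 2 and Atp5g3 at 1242 and 770.1 CPM in wild type 1 and 2 and 537 and 629.8 CPM in Carm1 mutant 1 and 2. All 3 had separate groups, and none passed (−0.59, SE 0.28, edgeR FDR 0.216; −0.79, SE 0.25, edgeR FDR 0.0919; −0.79, SE 0.28, edgeR FDR 0.122). Atp5g1 held 50.8% and 50.3% of the counts of the 3 in wild type against 55.1% and 53.0% in the mutant libraries, 50.6% ± 0.35 and 54.0% ± 1.48 (SD, n = 2 each), a difference of 3.43 points with no overlap. The counts of Atp5g1 and Atp5g2 are those with large shares in copies, given above.

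Of the membrane and dimer subunits, Atp5l (subunit g) and Atp5k (subunit e) help ATP synthase to pair in rows along the cristae, Atp5j2 is subunit f and Atp5mpl a small proteolipid. Their log2 fold changes ran from −0.74 (Atp5l) to −0.54 (Atp5j2), none passed, and the groups were separate for Atp5l and Atp5mpl only. Atp5l was at 540.0 and 314 CPM in wild type 1 and 2 and 245 and 266 CPM in Carm1 mutant 1 and 2, and Atp5k at 269 and 153 CPM in wild type 1 and 2 and 113 and 158 CPM in Carm1 mutant 1 and 2. In Atp5j2, at 889 and 445 CPM in wild type 1 and 2 and 439.7 and 479 CPM in Carm1 mutant 1 and 2, wild type 1 was 1.999-fold above wild type 2, which lay with the mutant libraries. Atp5s, the distantly related coupling factor B, was at 19.96 and 14.2 CPM in wild type 1 and 2 and 13.9 and 15.0 CPM in Carm1 mutant 1 and 2, with a log2 fold change of −0.24 that did not pass.

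Longer transcripts had lower fold changes within the set, which over all genes held without wild type 1 but not with all libraries. Over the 43 genes Spearman's rho between the log2 fold change and the length of the principal transcript was −0.46. It was −0.57 without wild type 1 and −0.45 with an offset for length and GC content fitted in each library. That offset used the longest transcript of each gene and not the principal one, and the 2 can differ widely (6310 and 544 bases for Atp5l). What remains with the offset is therefore not corrected for the length used here. Within complex III alone, over 9 genes, it was −0.87. These are descriptions across genes that share libraries and depth, with no test. The 14 genes with a principal transcript of at least 1000 bases, a limit chosen after the values were seen, had a median log2 fold change of −0.87, and −0.54 without wild type 1. Over all genes the medians were 0.03 for those of at least 1000 bases and −0.15 for shorter ones, and −0.01 and 0.14 without wild type 1. The 14 include all 4 called genes, where 4.98% of all genes of that length were called lower, and 9 of them were called without wild type 1 (1286 of 12810 genes of that length in that fit). The 29 shorter genes had medians of −0.54 and −0.10, with 0 and 1 called (2.33% and 4.43% of all genes under 1000 bases). With the length and GC offset 10 of the longer and 5 of the shorter genes were called lower, against 11.8% of all genes in that fit, 12.7% of the longer and 10.6% of the shorter ones. The length used for Atp5g1 is the median of principal transcripts that differ in length. Whether RNA quality or fragment length differed between libraries was not tested.

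**Figure D5:**
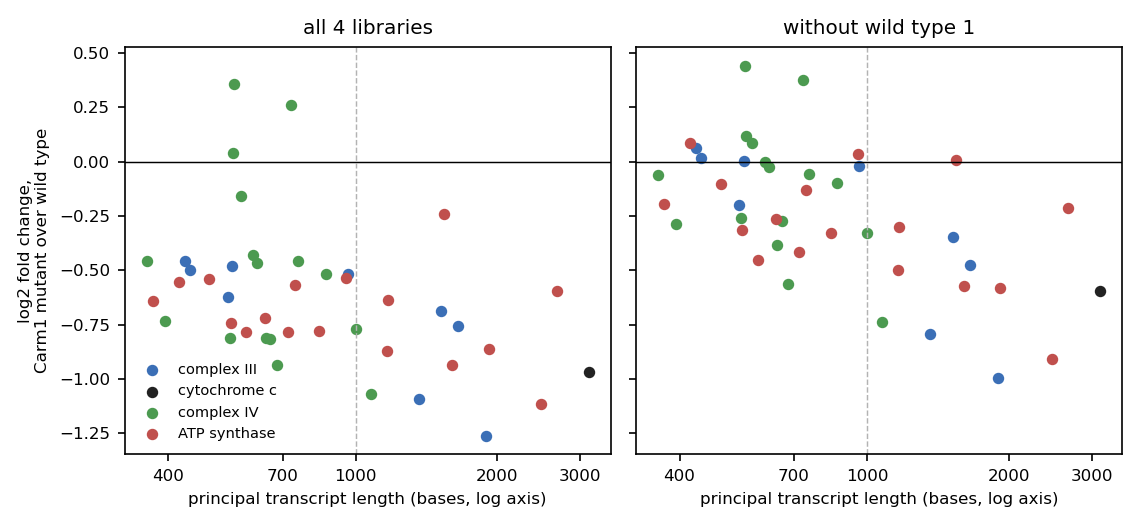
Log2 fold change, Carm1 mutant over wild type, on the vertical axis against the length of the principal transcript in bases (log axis) for the 43 genes, coloured by complex, with all 4 libraries on the left and without wild type 1 on the right. The dashed line is 1000 bases; genes to its right have a median of −0.87 on the left and −0.54 on the right, and genes to its left −0.54 and −0.10.

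Among the factors that build these complexes, 4 had log2 fold changes below that of any of the 43 genes, namely Taco1, Lrpprc, Tmem70 and Atpaf1. The counts in the lists that follow are to be read against the genes called lower in the same fit, 4.58% of all genes tested and 15.1% of those of at least 100 CPM. Of 28 tested complex IV assembly genes 4 fell and none rose, with a median of −0.51. Taco1, which activates translation of the mitochondrial mRNA of complex IV subunit 1, was at 34.2 and 27.5 CPM in wild type against 7.06 and 7.58 CPM in the mutant libraries. It fell by 2.08 on the log2 scale (SE 0.21, edgeR FDR 0.0053), and by 1.93 without wild type 1. Lrpprc, which stabilises mitochondrial mRNAs, was at 146 and 139 CPM in wild type against 52.1 and 53.5 CPM in the mutant libraries, with each pair close together, and fell by 1.43 (SE 0.19, edgeR FDR 0.0103). Cox15, which makes haem a for complex IV, fell by 0.84 (SE 0.18, edgeR FDR 0.0353), and Coa5, another assembly factor, was the fourth of them. Hccs, the lyase that attaches haem to cytochromes c and c1, fell by 1.16 (SE 0.18, edgeR FDR 0.0167), 1 of 4 tested genes in the list of other complex IV subunits and cytochrome c factors (median −0.53).

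For complex III 1 of 7 tested assembly genes fell, Uqcc1, which is needed for cytochrome b, from 127 and 85.0 to 49.7 and 56.3 CPM (−0.9997 on the log2 scale, SE 0.24, edgeR FDR 0.0457). The list's median was −0.55. Of 8 tested ATP synthase assembly and regulatory genes 2 fell (background 4.58% and 15.1%, as above), at a median of −0.75. Tmem70, which helps to form the c ring, was at 69.6 and 46.5 CPM in wild type against 22.0 and 18.6 CPM in the mutant libraries (−1.51, SE 0.24, edgeR FDR 0.0176), and Atpaf1, a chaperone of the beta subunit, had a log2 fold change of −1.30 (SE 0.20, edgeR FDR 0.0164), with 22.3% to 29.4% of its counts in an annotated copy. The list of 19 genes for cristae and supercomplexes had 3 that fell, close to the 15.1% of genes of at least 100 CPM, and a median of −0.63: Opa1 (−1.20), which shapes cristae, Immt (−1.19), the core of the cristae junction, and Mtx2 (−0.93), of the outer membrane bridge.

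The mitochondrially encoded partners of these subunits did not pass the test: none of 6 was called, with a median of −0.59. mt-Cytb of complex III was at 68043 and 57798 CPM in wild type against 50297 and 43706 CPM in the mutant libraries (−0.42, SE 0.32, edgeR FDR 0.423). The complex IV genes mt-Co1, mt-Co2 and mt-Co3 had log2 fold changes of −0.53, −0.68 and −0.65, and mt-Atp6 of −0.81. These values are uncertain, since annotated copies held large shares of the counts of gene and copies together. For mt-Co3 the copies held 43.3% and 31.4% in wild type against 24.1% and 38.6% in the mutant libraries, for mt-Co2 15.5% and 17.6% against 27.7% and 26.6%, and for mt-Atp6 from 14.5% to 29.7%. For mt-Co1 they held at most 3.67%. Of mt-Atp8, whose levels were 37.8 and 37.7 CPM in wild type against 67.4 and 25.3 CPM in the mutant libraries, no direction can be given. Carm1 mutant 1 lay above Carm1 mutant 2 in all 6, whereas the reverse held in 42 of the 43 nuclear genes.

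Among 20 tested genes for the transcription of respiratory chain genes, 6 fell and none rose (4.58% and 2.79% of all genes tested), with a median of −0.34. Perm1, a muscle regulator of oxidative genes, was at 268 and 279 CPM in wild type against 80.6 and 87.4 CPM in the mutant libraries and fell by 1.70 (SE 0.20, edgeR FDR 0.0082). Esrrb, an estrogen-related receptor, was at 19.2 and 24.3 CPM against 7.06 and 7.14 CPM and fell by 1.61 (SE 0.22, edgeR FDR 0.0106). Tfb2m, a mitochondrial transcription factor, fell by 1.05 (SE 0.19, edgeR FDR 0.0244), though 8.46% to 15.2% of its counts lay in an annotated copy. The others called were Twnk, the mitochondrial helicase, Esrrg, and the coactivator Ppargc1a. In this list wild type 1 lay above wild type 2 for 7 of 20 genes, unlike the 42 of the 43 genes described here.

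Complexes I and II, upstream in the chain, also had medians below 0. Of 37 complex I subunits 3 were called lower (4.58% of all genes tested and 15.1% of those of at least 100 CPM), at a median of −0.67, and 2 of the 3 are Ndufs5 and Ndufa12, whose copies are described above; the third was Ndufs1 (−1.06, SE 0.21, edgeR FDR 0.0286). Of the 4 complex II subunits 2 fell against the same background, Sdha (−1.20) and Sdhd (−1.30), at a median of −1.03. Without wild type 1 the medians were −0.24 for complex I and −0.70 for complex II, against −0.26 for the 43 genes. No test set these complexes against the genes described here, so no difference between complexes is claimed.

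Cardiomyocyte markers lay lower in the same libraries. All 8 had log2 fold changes below 0, 1 of them was called (Pln, the brake on the calcium pump), and their summed level was 77280 and 67000 CPM in wild type against 39202 and 42180 CPM in the mutant libraries, with a median of −0.82. Of 7 fibroblast markers none was below 0 and 1 was called higher (Postn), with sums of 3237 and 3782 against 5555 and 5898 CPM. For 6 endothelial markers, none called and none below 0, the sums were 920.0 and 1216 against 1569 and 1363 CPM. The part that a different share of heart muscle cells had in the lower subunit levels and in the isoform shares was not tested. Brown fat is rich in these subunits and expresses Cox8b. Of its 9 listed markers Ucp1, its defining gene, had 33 and 4 counts in wild type 1 and 2 and none in Carm1 mutant 1 or 2, where 0 counts allow up to 0.135 and 0.257 CPM of the library total. Plin1 had 10 and 0 counts in wild type 1 and 2 and 2 and 1 in Carm1 mutant 1 and 2, and Adipoq and Elovl3 had at most 4 and 1 counts. Cidea was at 69.0 and 45.5 CPM in wild type against 31.6 and 40.3 CPM in the mutant libraries, Dio2 at 1.49 to 3.54 CPM and Fabp4 at 628 to 781 CPM, and the remaining markers are Cox8b and Ppargc1a. The counts of Ucp1 and Plin1, low as they are, lay mostly in wild type 1, the library that stands apart. With Cox8b left out, the listed markers summed to 995 and 969 CPM in wild type against 806 and 712 CPM in the mutant libraries. The part of brown fat in the results was not tested. Of 8 skeletal muscle markers the fast myosins Myh1 and Myh4 were at 0 in every library and Myh2 had 0 to 3 counts. The others were detected: Tnni2 had 50 to 140 counts, Mylpf 22 to 53 and Tnnt3 13 to 62, and Ckm and Acta1, which heart muscle also expresses, made up most of the list's sum of 2402 and 1499 CPM in wild type against 1094 and 1391 CPM in the mutant libraries. The part of skeletal muscle was not tested either.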

How the data were processed

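The authors deposited 1 table of raw counts per gene for 4 heart libraries, as whole numbers. Their processing notes list FastQC, HISAT2 and the mm10 build. No source used here gives versions, the counting program, how it treated reads that match several places, or whether strand was kept. Columns were matched to samples by title and grouped by genotype label. Names, coordinates (counted from 1), principal transcripts and copies come from GENCODE M21, which named 54723 of 54752 rows.

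Genes were kept with filterByExpr (15283), scaled by TMM factors (0.806, 0.943, 1.13 and 1.16 for wild type 1 and 2 and Carm1 mutant 1 and 2) and fitted on genotype alone in edgeR 4.0.16 under R 4.3.3. The quasi-likelihood test had 2 residual degrees of freedom, and its p-values were adjusted by Benjamini-Hochberg over all genes with a threshold of 0.05. All 43 genes were in the fit. SEs were obtained from the fold change and the F statistic, and ± is the SD of 2 libraries. Replicates differed beyond counting error (chi-square per degree of freedom 51.1 for wild type, 11.5 for mutant), so none was merged. On data simulated from these means the same steps recovered the changes put in. Those changes were larger than that of any of the 43 genes, and no library was made to stand apart. The recovery therefore does not bear on changes of the size reported here. Copies were found with BLAST+ 2.17.0; promoters are from RefSeq (GRCm38.p6).

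Alternatives used DESeq2 1.42.0, limma 3.58.1, other scalings, filters and thresholds, a length and GC offset, a block for the replicate number and leaving out each library. The genes, the pathway and marker lists and the rules were chosen with earlier results of these data known, and support nothing on their own. Full statistics go to called genes, the 3 most abundant and the 3 with the largest fold change of each complex, Cyc1, Cycs and the isoform sets, and from each pathway list to up to 3 called genes; other genes are named by their values. Intervals and floors (3 counts, or 0.135 to 0.257 CPM of library totals) cover counting error only.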

Additional observations from a re-analysis of the deposited data

How the results depend on the processing

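None of the 43 genes was called higher under any of the 19 alternatives, and their median log2 fold change stayed below 0 in each for which it was computed, which leaves out the crossed pairing (−0.64 with all libraries, −1.03 to −0.26 with 1 library left out, −0.22 with library totals, where the median over all genes is 0.41 in place of 0.02). The number called lower, 4, was less stable. It was 21 with a crossed replicate pairing (chosen after seeing the data), 16 with DESeq2's Wald test, 15 with the length and GC offset, 20 with no filter on low counts, 9 at an FDR of 0.10, 2 with the robust fit, and 1 with library totals and 1 with upper-quartile factors. Over all genes 700 calls were lower and 426 higher, and with library totals 206 of 1395 calls were lower. The lower calls over all genes moved with the setting as well. They were 2139 of 15283 genes with the crossed pairing and 1117 of 15283 with the Wald test. With the length and GC offset they were 1798 of 15280, and with no filter 1461 of 26469. The robust fit gave 666 of 15283 and upper-quartile factors 554 of 15283. With 1 library left out the number ranged from 0 (without Carm1 mutant 1 or without Carm1 mutant 2) to 39 (without wild type 2); it was 10 without wild type 1. The lone library of a group then takes its spread from the other group, and the mutant pair differed less than the wild type pair. The cause of the other shifts was not tested. The titles number the replicates. With the number as a replicate block 2 genes were called lower (642 of 15283 over all genes). With the block and the length and GC offset together 9 were called lower (1657 of 15280 over all genes). Deviations of same-numbered libraries correlated by −0.25 over 15283 genes, so the pairing is not borne out by the data. The Cox7a1 share difference ran from −0.47 to 2.09 points and the Cox4i2 difference was 0.96 points per exonic kilobase. Signs turned for the genes that follow, and for Cox6c, Uqcr10, Uqcrh, Uqcr11, Atp5j2 and Atp5e the value with all libraries was not near 0 (−0.43 to −0.56). With 1 library left out the log2 fold change of Cox6c ran from −0.81 to 3.3e-05, that of Uqcrh from −0.89 to 0.0023, Atp5s from −0.50 to 0.0092, Uqcr11 from −0.92 to 0.015, the log2 fold change of Atp5j2 from −0.99 to 0.033, Uqcr10 from −0.89 to 0.062, Atp5e from −1.04 to 0.085 and Cox6a1 from −0.42 to 0.084, with the highest value of each without wild type 1. The log2 fold change of Cox8a ran from −0.32 without wild type 2 to 0.44 without wild type 1, and was −0.034 without Carm1 mutant 2, −0.027 with the length and GC offset and −0.0091 with that offset and the replicate block. For Cox6b2 the range was −0.12 to 0.76, and for mt-Atp8 −0.58 to 0.83. With library totals the values were 0.25 for Cox6a1 and 0.17 for Atp5s. With 2 libraries a group, exact tests on single values cannot fall below 0.333.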

Other observations

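Of the 46 rows that met the rule on names, 3 fell under the count minimum: Cox8c (0 counts), Cox7b2 (5 counts), both testis isoforms of complex IV, and a further gene model of Atp5o (0 counts). Exons of 13 of the 43 genes overlap another annotated gene. The largest such neighbours were Gabpa at Atp5j (2552 counts against 31865), Vps13b at Cox6c (1341 against 45028), Emc8 at Cox4i1 (1201 against 85937) and Wdr77 at Atp5f1 (907 against 35262), all on the opposite strand.

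By level per kilobase of principal transcript, Uqcr11 had rank 1 and Uqcrc2 rank 9 among the 9 genes of complex III in all 4 libraries. The means were 1527 ± 664 and 353 ± 88.2 CPM per kilobase in wild type, against 1081 ± 183 and 147 ± 8.94 for Carm1 mutant (SD, n = 2 each). In complex IV Cox6a2 had rank 1 and Cox4i1 rank 2 in every library, at 2889 ± 964 and 1772 ± 625 CPM per kilobase in wild type, against 1508 ± 176 and 1292 ± 109 for Carm1 mutant. The gap from Cox6a2 to Cox4i1 was wider than the SD of either gene in both groups.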
